A study of Mus musculus with 11 samples.

Results

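The CC chemokines described here are the 8 genes Ccl2, Ccl3, Ccl4, Ccl6, Ccl7, Ccl9, Ccl12 and Ccl22, taken by gene symbol from the 36529 genes counted in 11 RNA sequencing libraries of BV2 cells. BV2 is a transformed line of mouse microglia. In the nApoE4 experiment, 3 libraries came from cells given 25 μg/ml of an amino-terminal fragment of apolipoprotein E4 (residues 1 to 151, nApoE4) for 5 h and 3 from untreated cells (control A). In the nApoE3 experiment, 2 libraries came from cells given the same dose of the matching apolipoprotein E3 fragment (nApoE3) for 5 h and 3 from untreated cells (control B). The fragments differ by a single amino acid and carry a histidine tag, and all cells come from the same line of C57BL/6 origin. The labels name a PBS vehicle for the untreated cells where the study's methods describe added conditioned media. Each fragment was given in its own experiment, so fragment and experiment cannot be told apart when the responses are compared. The study speaks of independent trials that were averaged, and neither it nor the labels say whether the libraries came from separate cultures, so the p-values measure the spread between these libraries, which may be technical.

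CC chemokines are small secreted proteins named for a pair of adjacent cysteines near the start of the mature chain. They bind receptors coupled to G proteins on leukocytes and draw those cells towards their source, and glycosaminoglycans on cell surfaces hold them in place. In the brain, microglia are among the cells that make them after injury or on meeting microbial products. Ccl2, Ccl7 and Ccl12 are monocyte attractants that share the receptor Ccr2. Ccl3 and Ccl4 are the macrophage inflammatory proteins, and Ccl3 binds Ccr1. Ccl6 and Ccl9 are mouse chemokines of the Ccr1 group, and Ccl22 is a ligand of Ccr4, a receptor of T helper and regulatory T cells.

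The stretch of coding sequence around the cysteine pair is shown for 7 of the genes because it is the feature that defines the family and shows how far the members differ. Each sequence holds 36 bases read 5′ to 3′ on the coding strand from the GENCODE M21 transcripts of GRCm38.p6, and the capitals mark the codons of the 2 adjacent cysteines.
Ccl2: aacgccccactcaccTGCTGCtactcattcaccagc
Ccl7: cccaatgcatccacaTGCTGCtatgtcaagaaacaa
Ccl12: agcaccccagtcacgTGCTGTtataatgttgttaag
Ccl4: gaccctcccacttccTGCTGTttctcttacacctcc
Ccl9: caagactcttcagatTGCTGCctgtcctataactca
Ccl6: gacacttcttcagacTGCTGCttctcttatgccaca
Ccl22: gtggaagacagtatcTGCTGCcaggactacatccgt
Over whole coding sequences the most alike pairs were Ccl2 and Ccl7 (72.1% identical bases over 287 aligned) and Ccl3 and Ccl4 (71.1% over 270). No transcript of the members matched a transcript of another gene over 75 bases or more, the read length, at 97% identity or above, except 1 match of Ccl9 with Sdhaf2.

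Of the members, 7 lie on chromosome 11 in 2 stretches and Ccl22 lies on chromosome 8 (94745590 to 94751699, GRCm38.p6). Ccl2 (82035571 to 82037453), Ccl7 (82045712 to 82047525) and Ccl12 (82101845 to 82103400) fill a stretch of 67.8 kb. Ccl9 (83572919 to 83578636), Ccl6 (83587882 to 83593087), Ccl3 (83647844 to 83649355) and Ccl4 (83662584 to 83664683) fill another of 91.8 kb, 1.47 Mb further on. In the RefSeq annotation of the same build, the span of Ccl4 begins earlier, at 83648624, and shares 755 bases with that of Ccl3, which lies on the other strand. The annotation and overlap mode used for counting are not given in the sources used here, so reads from those bases may be missing from Ccl3.

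Ccl6 was listed at 0 in all 11 libraries. Its whole span lies inside that of another gene, E230016K23Rik (83582061 to 83623693). Of 713 protein-coding genes that lie wholly inside another gene's span, 95.1% were at 0 in every library, against 18.1% of 14233 that overlap no other gene. A low level of Ccl6 and a loss of its reads in the counting cannot be told apart, and the gene enters no test.

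The libraries held 39732710 to 44162511 counts in the nApoE4 experiment and 55809688 to 69768666 in the nApoE3 experiment, and 3 counts, the floor used here, correspond to 0.0430 to 0.0755 CPM (the count scaled to the library total), for counting error only. Control A replicate 2 stood apart from the other libraries of its group: the chi-square per degree of freedom over genes was 25.8 and 47.9 against them and 7.85 between them. Leaving it out is reported below wherever it changed a call. Of 13 microglia markers, 8 were above 1 CPM in every library, among them Csf1r at 677 to 814 CPM, while Aif1 and Cx3cr1 stayed below 1 CPM and P2ry12, a gene inside the span of Med12l, was listed at 0. The summed microglia markers were 3319 to 3640 CPM in control A, 3572 to 3655 with nApoE4, 2396 to 2506 in control B and 2812 to 2827 with nApoE3.

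With nApoE4, all 7 members that could be tested were higher than in control A, in a comparison where 57.2% of 14240 genes were called at an adjusted p under 0.05, with 28.6% of genes higher and 28.6% lower (edgeR's quasi-likelihood test, used for every adjusted p here). Their median log2 fold change was 2.71, against 0.0013 over all genes tested. With nApoE3, 7 of 7 were higher than in control B, where 67.7% of 14817 genes were called (33.1% higher and 34.6% lower). Their median was 4.69 against −0.0026 over all genes, and it is the value of Ccl22. Ccl12 and Ccl22 passed the filter on low counts only through their treated libraries, so the filter favoured their being higher. Treated and control libraries did not overlap for any of the 7 in either experiment, and how often this held over all genes was not counted. In these bulk samples, more cells that express a gene and more RNA per cell cannot be told apart.

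Summed over 4 endothelial markers, of which Kdr made up nearly all and Cldn5 was at 0, the level was 150 to 177 CPM in control A, 62.5 to 71.7 with nApoE4, 64.0 to 66.3 in control B and 42.8 to 47.9 with nApoE3. Summed over 4 astrocyte markers it was 1.204 to 1.39, 6.02 to 7.03, 1.05 to 1.22 and 4.37 to 4.53 CPM in the same order, with Slc1a2 as the only one above 1 CPM in any library. Their part in the chemokine results was not tested.

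**Figure D1:**
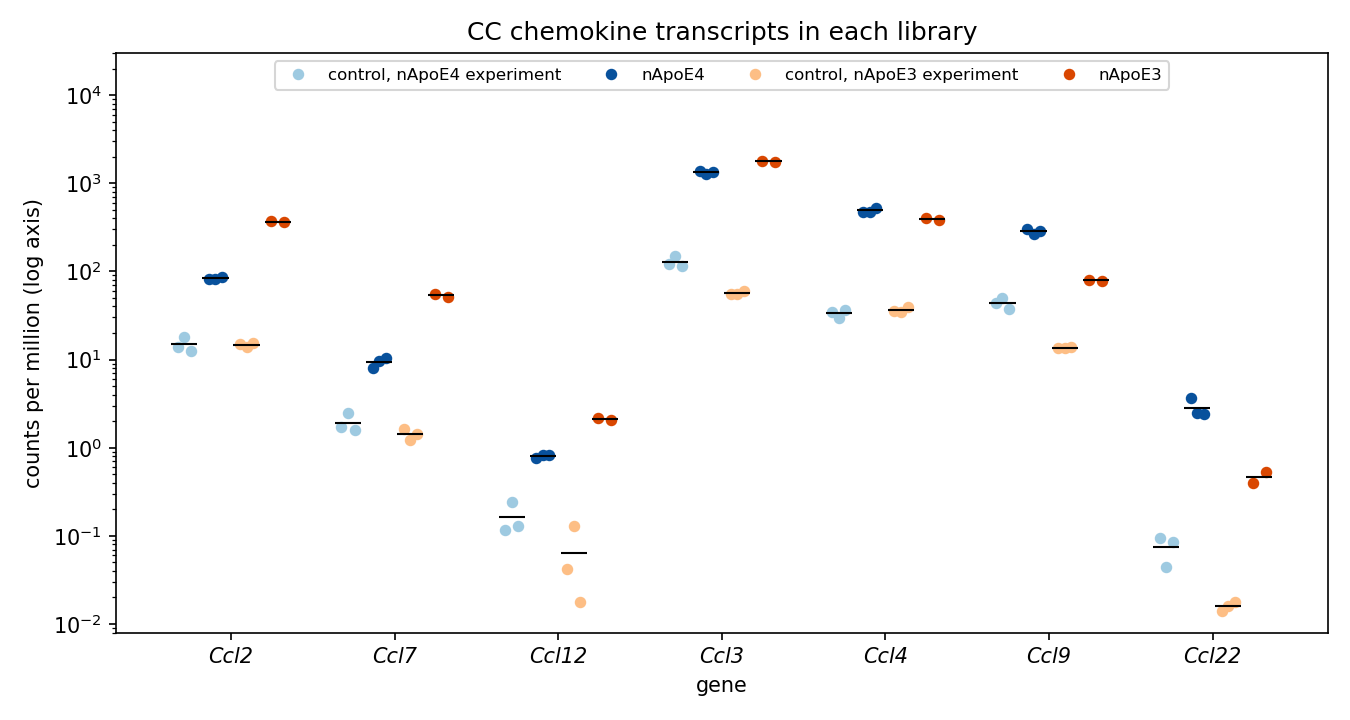
TMM-scaled CPM on a log axis for 7 CC chemokines in each of the 11 libraries, with points for libraries and a line at each group's mean. The treated libraries sit above their controls for every gene, and Ccl3 is the highest at 1328 CPM with nApoE4 and 1780.5 CPM with nApoE3 on average.

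Among the Ccr2 ligands, Ccl2, the main monocyte attractant, had 585, 818 and 589 counts in control A and 3489, 3382 and 3434 with nApoE4. In the other experiment it had 1048, 851 and 870 counts in control B and 21683 and 20423 with nApoE3. Every treated library lay far above its controls, and the nApoE3 libraries lay above those of nApoE4 as well, although they were also deeper. On the CPM scale, here and below scaled by TMM over the 11 libraries, the gene went from 14.9 ± 2.98 to 83.1 ± 2.97 (SD, n = 3 each) with nApoE4, a log2 fold change of 2.49 (SE 0.12, adjusted p = 1.10e-07). With nApoE3 it went from 14.7 ± 0.857 (SD, n = 3) to 367.2 ± 7.73 (SD, n = 2), a log2 fold change of 4.64 (SE 0.037, adjusted p = 4.02e-16). The fold changes correspond to 5.61-fold and 24.9-fold, from control levels that overlapped.

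Ccl7, which attracts monocytes and other leukocytes, had 73, 110 and 75 counts in control A and 341, 404 and 418 with nApoE4. Control B held 116, 76 and 81 counts and the nApoE3 libraries 3220 and 2897. The groups did not overlap, and the gap was wide in the nApoE3 experiment. The log2 fold change was 2.29 (SE 0.17, adjusted p = 2.82e-06) with nApoE4 and 5.20 (SE 0.074, adjusted p = 3.68e-14) with nApoE3. The ratio of Ccl2 to Ccl7 counts stayed between 6.73 and 11.2 in every library while both genes rose.

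Ccl12, a mouse monocyte attractant close to Ccl2, was counted at low levels. Control A held 5, 11 and 6 counts and the nApoE4 libraries 33, 34 and 33. Control B held 3, 8 and 1 counts and the nApoE3 libraries 126 and 117. The treated libraries agreed closely with each other, and the controls were near or below a handful of reads. The log2 fold change was 2.28 (SE 0.31, adjusted p = 1.52e-04) with nApoE4 and 5.01 (SE 0.36, adjusted p = 8.69e-08) with nApoE3. From the summed counts, the ratio to control after division by TMM-scaled library totals was 4.91 (95% counting interval 3.07 to 8.18) with nApoE4 and 33.4 (18.8 to 65.5) with nApoE3. Control B replicate 2 held most of the control counts, and without it the log2 fold change with nApoE3 was 5.98 (adjusted p = 3.92e-08).

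Ccl3, a ligand of Ccr1, was the most abundant member in every group. It had 5139, 6699 and 5331 counts in control A and 58456, 53120 and 53216 with nApoE4, and 3954, 3400 and 3408 in control B and 105229 and 98934 with nApoE3. Control B lay below control A although its libraries were deeper, and the nApoE3 libraries were the highest of all. The level rose from 128 ± 18.7 to 1328 ± 44.0 CPM (SD, n = 3 each) with nApoE4, a log2 fold change of 3.38 (SE 0.11, adjusted p = 6.92e-09). It rose from 57.1 ± 2.94 (SD, n = 3) to 1780.5 ± 39.8 CPM (SD, n = 2) with nApoE3, a log2 fold change of 4.96 (SE 0.034, adjusted p = 2.11e-16). By mean CPM, the gene ranked 1650 among all genes in control A and 58 with nApoE4, and 4314 in control B and 37 with nApoE3.

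Ccl4, its neighbour and also an attractant of macrophages and T cells, had 1466, 1310 and 1717 counts in control A and 20393, 19636 and 20804 with nApoE4. Control B held 2487, 2141 and 2216 counts and the nApoE3 libraries 23737 and 21787. On the CPM scale the treated groups were close, at 491 ± 29.0 (SD, n = 3) with nApoE4 and 397 ± 15.6 (SD, n = 2) with nApoE3, from controls of 33.5 ± 3.88 and 36.4 ± 2.57 (SD, n = 3 each). The log2 fold change was 3.88 (SE 0.10, adjusted p = 2.03e-09) with nApoE4 and 3.44 (SE 0.043, adjusted p = 1.36e-14) with nApoE3. Ccl4 and Ccl3 thus changed order: by fold change, Ccl4 stood above Ccl3 with nApoE4 and below it with nApoE3. The ratio of Ccl3 to Ccl4 counts was 3.10 to 5.11 in control A and 2.56 to 2.87 with nApoE4, and 1.54 to 1.59 in control B and 4.43 to 4.54 with nApoE3.

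Ccl9, a Ccr1 ligand made by myeloid cells, had 1857, 2249 and 1740 counts in control A and 12827, 11033 and 11474 with nApoE4. Control B held 949, 829 and 792 counts, fewer than control A in deeper libraries, and the nApoE3 libraries held 4704 and 4368. The level went from 43.7 ± 6.44 to 285 ± 17.3 CPM (SD, n = 3 each) and from 13.6 ± 0.368 (SD, n = 3) to 79.1 ± 2.46 CPM (SD, n = 2). The fold changes were nevertheless close, with log2 values of 2.71 (SE 0.11, adjusted p = 2.84e-08) for nApoE4 and 2.53 (SE 0.038, adjusted p = 6.02e-14) for nApoE3. With nApoE3 this was the smallest change of the 7 members.

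Ccl22 was nearly absent from untreated cells. Control A held 4, 2 and 4 counts and control B 1, 1 and 1. With nApoE4 the libraries held 157, 103 and 95 counts and with nApoE3 23 and 30, so that all treated libraries were above all controls and the nApoE4 libraries were highest. The ratio to control after division by TMM-scaled library totals was 38.3 (95% counting interval 20.6 to 80.7) for nApoE4. It was 29.1 (9.43 to 146) for nApoE3, the latter resting on 3 control counts in all. The fitted log2 fold changes were 5.21 (SE 0.33, adjusted p = 7.70e-07) and 4.69 (SE 0.52, adjusted p = 5.00e-06), values that depend on how such low counts are treated in the fit.

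**Figure D2:**
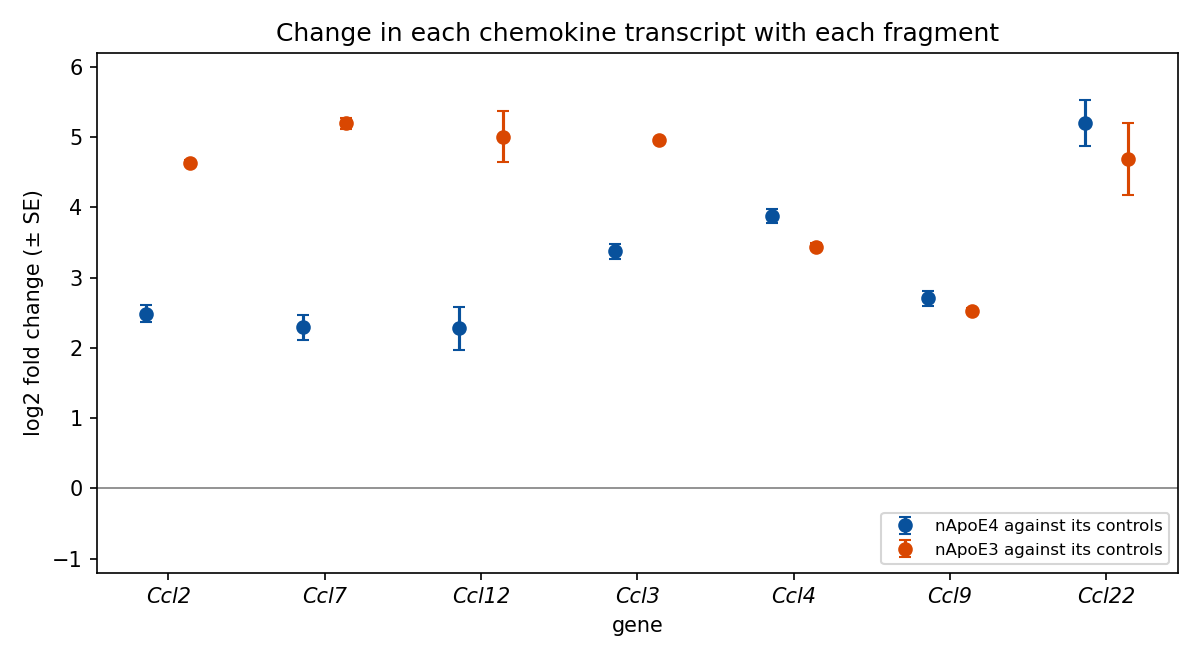
Log2 fold change of 7 CC chemokines with each fragment against its own controls, with bars for the approximate standard error (smaller than the symbol for several nApoE3 values). The Ccr2 ligands and Ccl3 lie higher with nApoE3 (4.64 to 5.20). The fragments lie closer for Ccl4 (3.88 with nApoE4 and 3.44 with nApoE3), Ccl9 (2.71 and 2.53) and Ccl22 (5.21 and 4.69).

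To compare the fragments, the difference between their responses was tested as an interaction over all 11 libraries. It was called for 5 of 7 members, against 28.3% of 15287 genes tested, with 4 lower and 1 higher in the direction of nApoE4 minus nApoE3 (13.9% and 14.4% of all genes). The rise with nApoE4 was smaller for Ccl2 (difference of log2 changes −2.16, 95% interval −2.48 to −1.85, adjusted p = 3.74e-07) and for Ccl7 (−2.92, −3.40 to −2.44, adjusted p = 1.10e-06). It was also smaller for Ccl12 (−2.73, −4.03 to −1.43, adjusted p = 0.00429) and for Ccl3 (−1.59, −1.85 to −1.32, adjusted p = 1.12e-06). The Ccl12 value was −3.69 without control B replicate 2 (adjusted p = 6.52e-04), and it did not pass a test against a fold change of 2 (adjusted p = 0.138). In folds, the response to nApoE4 was 4.48 times smaller for Ccl2, 7.57 times for Ccl7, 6.62 times for Ccl12 and 3.01 times for Ccl3. All 3 Ccr2 ligands are therefore in the group with the smaller response to nApoE4, together with Ccl3. For Ccl3 the untreated level was itself lower in control B than in control A, by a log2 change of −1.18 (SE 0.099). The treated means of Ccl3 were 1328 CPM with nApoE4 and 1780.5 CPM with nApoE3. For Ccl2 the change between controls was −0.035 (SE 0.13). Ccl12 was below the filter on low counts between controls. A fit of all 11 libraries put it lower in control B by −1.34 (SE 0.52, adjusted p = 0.0349). With every gene of at least 1 count it was not called (adjusted p = 0.0971).

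The other 3 members did not follow that direction. Ccl4 rose 1.34 times more with nApoE4 (difference 0.43, 95% interval 0.17 to 0.68, adjusted p = 0.0162), and this call was lost when nApoE3 replicate 2 was left out (difference 0.38, adjusted p = 0.0805) and did not pass a test against a fold change of 2. For Ccl9 the difference was 0.17 (95% interval −0.11 to 0.45, adjusted p = 0.379), and it passed the threshold without control A replicate 2 (0.28, adjusted p = 0.0293). The interval for Ccl22 was wide, from −1.91 to 3.00 around 0.54 (adjusted p = 0.807), so that a difference of several-fold in either direction was not detectable at this depth. The median difference over the 7 members was −1.59, against 0.0025 over all genes tested.

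**Figure D3:**
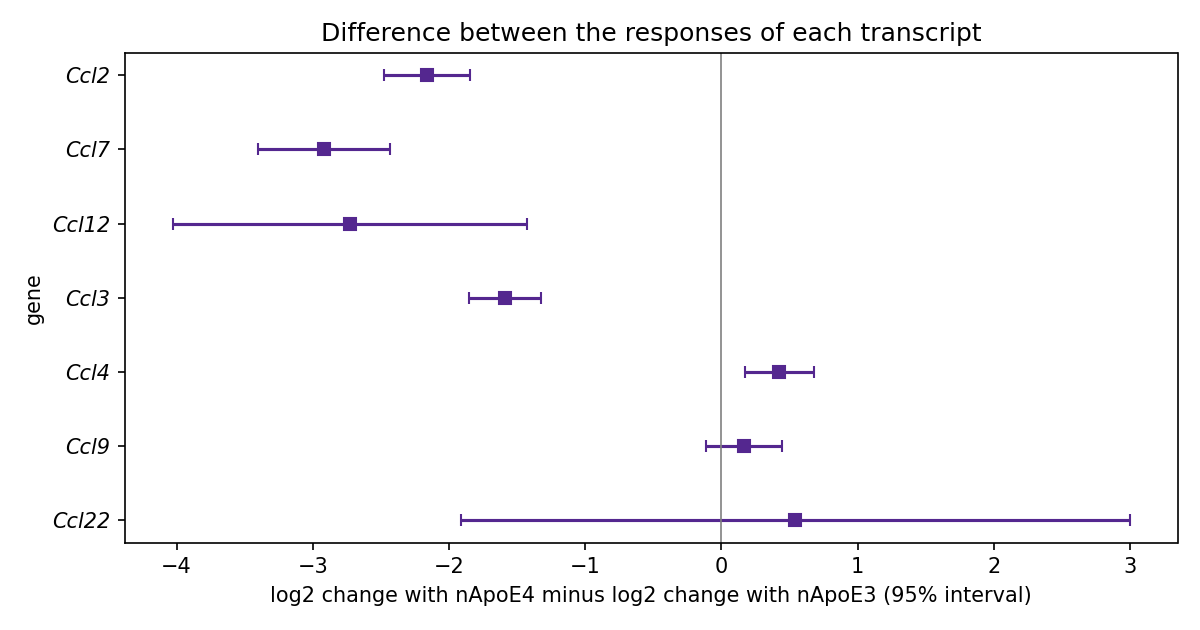
Log2 change with nApoE4 minus log2 change with nApoE3 for 7 CC chemokines, with 95% intervals from the interaction fit over 11 libraries. Ccl2, Ccl7, Ccl12 and Ccl3 lie below 0, Ccl4 lies above it at 0.43, and the intervals of Ccl9 and Ccl22 cross 0.

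The difference of response depends on the levels in untreated cells, which were compared between experiments for the 5 members that passed the filter on low counts. Of these, 2 were called, both lower in control B, in a comparison where 69.3% of 14249 genes were called and 34.9% were lower. Ccl3 was lower by a log2 change of −1.18 (SE 0.099, adjusted p = 1.74e-05) and Ccl9 by −1.70 (SE 0.10, adjusted p = 3.54e-06), which are 2.27-fold and 3.24-fold. Ccl2 (−0.035, 95% interval −0.33 to 0.26, adjusted p = 0.824), Ccl4 (0.10, −0.11 to 0.31, adjusted p = 0.338) and Ccl7 (−0.44, −0.90 to 0.028, adjusted p = 0.0841) did not pass the test. The CPM ranges of the control groups overlapped for Ccl2, Ccl4, Ccl7 and Ccl12 and not for Ccl3, Ccl9 and Ccl22. How often such ranges overlapped over all genes was not counted. Ccl12 and Ccl22 were below the filter here. With all 11 libraries in 1 fit both were called lower in control B, Ccl12 by −1.34 (adjusted p = 0.0349) and Ccl22 by −2.07 (adjusted p = 0.0152), and with every gene of at least 1 count neither was (adjusted p = 0.0971 and 0.0771).

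By position, the 3 genes of the first stretch had log2 fold changes within 2.28 to 2.49 with nApoE4 and within 4.64 to 5.20 with nApoE3. In the second stretch the responses were spread from 2.71 to 3.88 with nApoE4 and from 2.53 to 4.96 with nApoE3. Ccl9 stood lowest there with both fragments, and Ccl3 and Ccl4 traded places between fragments.

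**Figure D4:**
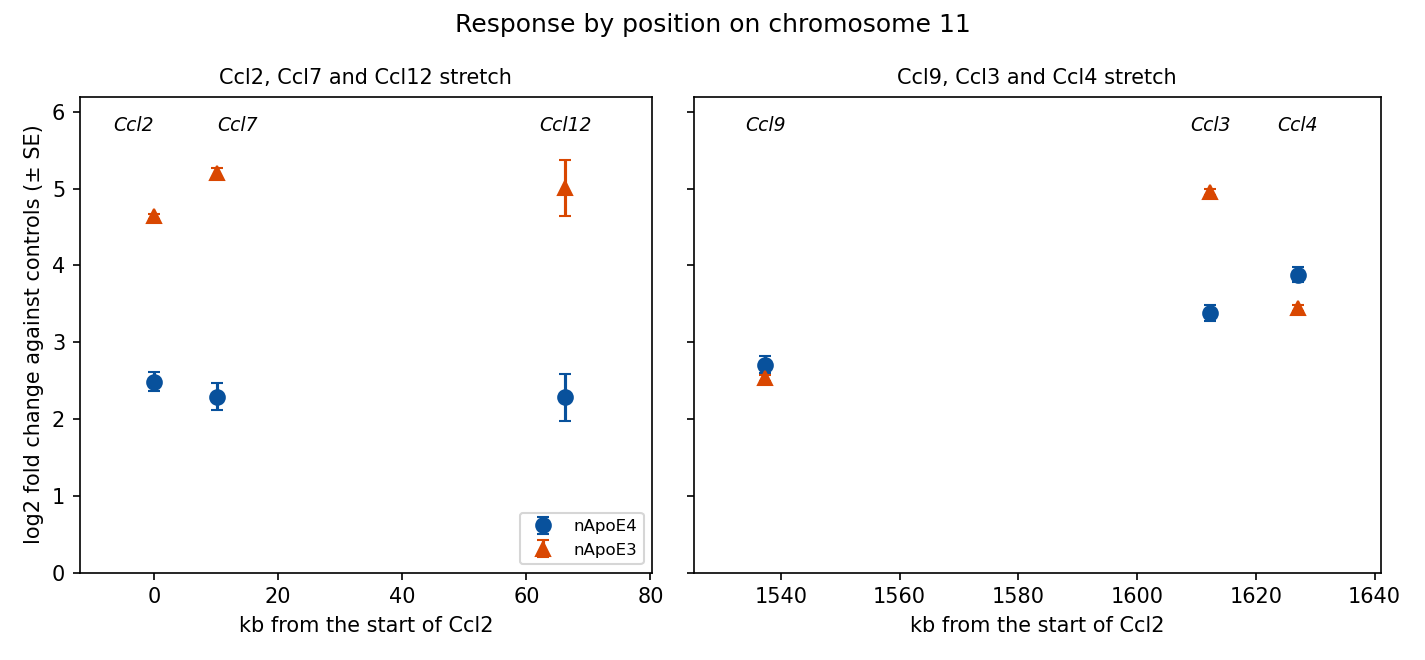
Log2 fold change (± approximate SE) against the start of each gene in kb from the start of Ccl2 on chromosome 11, in 2 panels for the 2 stretches. Ccl2, Ccl7 and Ccl12 show like responses within each fragment and a wide gap between fragments, and in the second stretch the gap is widest for Ccl3.

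The make-up of the summed counts of the 7 genes differed between groups, the untreated ones included. The sum took 0.0217 to 0.0254% of gene counts in control A and 0.212 to 0.223% with nApoE4, and 0.0120 to 0.0132% in control B and 0.243 to 0.250% with nApoE3. Ccl3 made up 56.3 to 59.8% of it in control A and 59.5 to 61.1% with nApoE4, but 46.2 to 46.5% in control B and 66.3 to 66.6% with nApoE3. Ccl9 made up 18.4 to 20.3% in control A and 12.6 to 13.4% with nApoE4, and 10.7 to 11.3% in control B and 2.94 to 2.96% with nApoE3. Ccl2 made up 6.22 to 7.30% of the sum in control A and 3.65 to 3.86% with nApoE4, and 11.6 to 12.2% in control B and 13.7% with nApoE3.

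**Figure D5:**
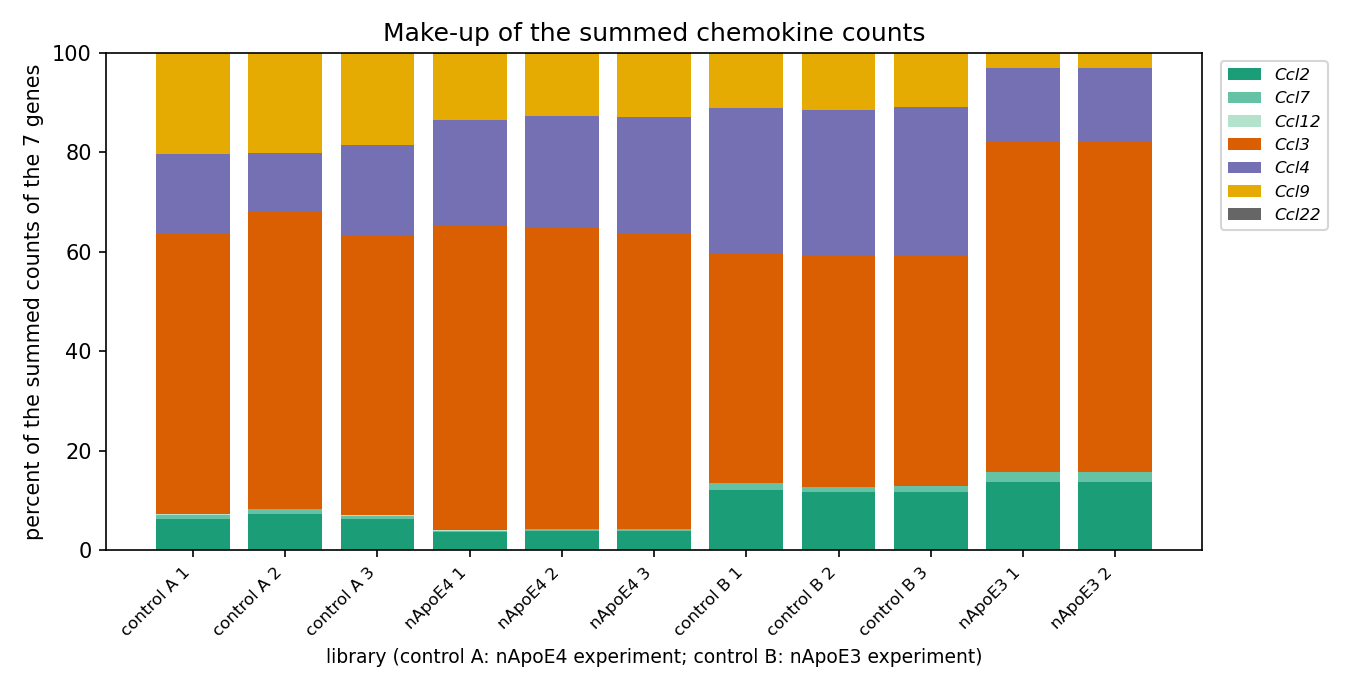
Percent of the summed counts of 7 CC chemokines taken by each gene in each library, as stacked bars from 0 to 100. Ccl3 holds the largest part everywhere, Ccl9 holds its smallest part with nApoE3 (2.94 to 2.96%), and Ccl2 holds a larger part in both groups of the nApoE3 experiment (11.6 to 13.7%) than in those of the nApoE4 experiment (3.65 to 7.30%).

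For levels between genes, mean CPM was divided by exonic length (GENCODE M21). Per kb, the order in control A was Ccl3 (167 ± 24.5 CPM per kb, SD, n = 3), Ccl4 (50.7 ± 5.87), Ccl9 (14.3 ± 2.11), Ccl2 (13.1 ± 2.62), Ccl7 (2.40 ± 0.575), Ccl12 (0.305 ± 0.132) and Ccl22 (0.0322 ± 0.0114). The spreads of Ccl9 and Ccl2 over libraries overlapped, and these genes were not compared within each library. The same order held with nApoE4, from Ccl3 at 1733 ± 57.5 to Ccl22 at 1.22 ± 0.305 CPM per kb, and there Ccl12 (1.502 ± 0.0607) lay within the spread of Ccl22. In control B, Ccl2 (12.9 ± 0.753) was above Ccl9 (4.48 ± 0.121). With nApoE3, Ccl2 reached 323 ± 6.79 and Ccl7 66.6 ± 3.56, both above Ccl9 at 26.0 ± 0.808 CPM per kb (SD, n = 2). Over the exonic bases outside the RefSeq span of Ccl4 alone, Ccl3 would stand at 231 ± 33.7 in control A rather than 167.

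RefSeq promoter windows (GRCm38.p6) were at hand for 5 members. The upstream sequence is shown for 3 of them, Ccl3 and Ccl9 from the second stretch and Ccl12 from the first. Each line gives 250 bases before the start, 5′ to 3′ on the gene's strand, with capitals for matches to a kappa-B consensus or an AP-1 site. The windows are chr11:83649379-83649628 (minus strand) for Ccl3, chr11:83578637-83578886 (minus strand) for Ccl9 and chr11:82101595-82101844 (plus strand) for Ccl12.
Ccl3: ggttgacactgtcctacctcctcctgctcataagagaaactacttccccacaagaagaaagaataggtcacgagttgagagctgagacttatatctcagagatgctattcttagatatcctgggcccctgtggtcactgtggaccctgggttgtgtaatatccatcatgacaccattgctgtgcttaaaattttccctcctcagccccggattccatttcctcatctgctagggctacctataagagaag
Ccl9: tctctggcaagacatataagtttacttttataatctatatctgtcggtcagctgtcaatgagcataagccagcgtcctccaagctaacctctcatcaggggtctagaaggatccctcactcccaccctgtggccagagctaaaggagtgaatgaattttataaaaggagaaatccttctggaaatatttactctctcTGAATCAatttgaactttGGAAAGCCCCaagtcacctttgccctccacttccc
Ccl12: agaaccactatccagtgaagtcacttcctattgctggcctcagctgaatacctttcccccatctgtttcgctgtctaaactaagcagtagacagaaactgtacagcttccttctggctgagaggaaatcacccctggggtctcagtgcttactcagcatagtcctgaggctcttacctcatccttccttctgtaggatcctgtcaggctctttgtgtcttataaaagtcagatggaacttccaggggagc
Both strands were searched for the kappa-B consensus, the AP-1 site TGANTCA, the core of the interferon-stimulated response element and TATAAA. Ccl9 held a kappa-B match on the opposite strand from −35 to −26 and an AP-1 match from −53 to −47 before the start, which do not overlap each other. Ccl12 held TATAAA from −31 to −26, and Ccl9 held it from −92 to −87 and, on the opposite strand, from −94 to −89, which overlaps the former, and from −224 to −219. Of 32851 promoter windows of this length, 7.25% hold the kappa-B consensus, 6.75% the AP-1 site, 2.98% the interferon element and 12.4% TATAAA. The windows of Ccl3, Ccl6 and Ccl22 held none of the 4, which says only that these letters are not in these windows. For Ccl22 the RefSeq start lies inside the GENCODE gene, so that 94 of the 250 bases searched fall after the GENCODE start.

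Of 13 other CC chemokines, 4 had enough counts to be tested with each fragment. Ccl20, the ligand of Ccr6, had 0, 1 and 1 counts in control A and 96, 82 and 90 with nApoE4. The ratio after division by TMM-scaled library totals was 145 (95% counting interval 39.7 to 1201). Ccl20 had 1, 0 and 0 counts in control B and 23 and 19 with nApoE3, a ratio of 69.2 (11.8 to 2797). It passed the filter on low counts only through its treated libraries. Ccl24, an eosinophil attractant that binds Ccr3, went the other way with nApoE3: it held 55, 63 and 39 counts in control A and 95, 82 and 85 with nApoE4, but 470, 431 and 387 in control B and 210 and 190 with nApoE3. Its log2 change was 0.85 (adjusted p = 0.00624) with nApoE4 and −0.97 (adjusted p = 8.20e-07) with nApoE3, and the difference of 1.81 passed the test (adjusted p = 4.62e-05). The untreated level of Ccl24 also differed, with control B higher than control A by a log2 change of 2.52 (adjusted p = 5.35e-06). Ccl25 rose with nApoE3 by 0.30 on the log2 scale (adjusted p = 5.87e-05) and was at 0.14 with nApoE4 (adjusted p = 0.273). For Ccl25 the difference between fragments did not pass the test (−0.17, adjusted p = 0.325). Ccl28, at 5 to 23 counts, passed with neither. Ccl1, Ccl8, Ccl11, Ccl17 and Ccl26 had at most 6 counts in any library.

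The receptors for these ligands were counted at low levels, none above 1.29 CPM in any library. Of 11 CC chemokine receptors, 4 could be tested with nApoE4 (2 higher, 1 lower) and 5 with nApoE3 (4 higher, 1 lower). Of all genes, 57.2% and 67.7% were called in either direction. Ccr7 and Ccr9, and Ccr10 with nApoE3, passed the filter on low counts only through their treated libraries. Ccr10 had 4, 7 and 7 counts in control B and 19 and 13 with nApoE3. Ccr1 with nApoE4 and Ccr2 with nApoE3 passed it only through their controls. Ccr7 had 0, 0 and 1 counts in control A and 25, 14 and 20 with nApoE4, and 1, 0 and 2 in control B and 32 and 17 with nApoE3. Ccr9 rose from 1, 3 and 5 counts to 38, 36 and 51 with nApoE4, and from 4, 0 and 1 to 33 and 28 with nApoE3. Ccr1, a receptor of Ccl3 and Ccl9, had 21, 21 and 19 counts in control A and 5, 2 and 5 with nApoE4 (log2 fold change −2.20, adjusted p = 6.56e-04). It had 6, 7 and 2 counts in control B and 5 and 9 with nApoE3, and the difference of response passed the test (−2.82, adjusted p = 0.00807). Ccr2, the receptor of Ccl2, had 17, 19 and 12 counts in control B and 4 and 0 with nApoE3 (log2 fold change −2.80, adjusted p = 0.00346), and is named here as a receptor of members after its values were seen. Ccr4, the receptor of Ccl22, was called higher with nApoE3 (0.59, adjusted p = 0.0390) and not with nApoE4 (0.52, adjusted p = 0.262), a difference between fragments that did not pass the test (adjusted p = 0.927). Ccrl2, an atypical receptor that binds chemokines without signalling through G proteins, rose from 33, 45 and 21 counts to 1603, 1801 and 1779 with nApoE4 (log2 fold change 5.82, SE 0.18, adjusted p = 5.68e-09) and from 73, 76 and 91 to 5239 and 4640 with nApoE3 (6.07, SE 0.085, adjusted p = 3.31e-14).

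Among 21 tested genes of chemokine receptor signalling, 5 were higher and 7 lower with nApoE4 and 10 higher and 8 lower with nApoE3, with medians of 0.017 and −0.010, where 57.2% and 67.7% of all genes were called in either direction. Pik3r5, a regulatory subunit of phosphoinositide 3-kinase gamma, rose with both (2.57 and 2.49), and Gnai2, an inhibitory G protein subunit, fell with both (−0.35 and −0.45). Of 12 tested proteases that trim chemokines and carriers of glycosaminoglycans, 7 were higher and 1 lower with nApoE4, and 9 higher and 2 lower with nApoE3, with medians of 0.91 and 1.75. Among the genes called higher, Rgs16 with nApoE3 and Mmp14 with nApoE4 passed the filter on low counts only through their treated libraries. The proteoglycan core proteins Sdc4 (3.17 and 3.45) and Cd44 (2.28 and 1.72) rose with both fragments, and Ctsd, a lysosomal protease, fell with both (−0.37 and −0.28).

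Genes of 2 pathways known to act on chemokine promoters were also counted, and their part in the chemokine results was not tested. All 15 NF-kB response genes were higher with each fragment, with medians of 3.30 and 2.36. All 11 tested type I interferon response genes were higher with each, with medians of 3.71 and 3.63, and Cxcl10 and Ifit1 were at 0 in every library. Of all genes, 28.6% were higher with nApoE4 and 33.1% with nApoE3. Tnf, Ifnb1 and Isg15, and Ifit3 with nApoE4, passed the filter on low counts only through their treated libraries. In the test of the difference, 9 of the 15 NF-kB genes rose more with nApoE4 and the other 6 did not pass, the former including Icam1, an adhesion molecule, by 0.71 (adjusted p = 2.80e-05). Of the 11 interferon genes, 1 rose more with nApoE4 (Irf1, a transcription factor, by 1.26, adjusted p = 6.52e-07) and 5 rose less, among them Ifit2 at −0.98 (adjusted p = 3.32e-06). Over all genes, 14.4% were called higher and 13.9% lower in the test of the difference. Of 7 factors that control decay of AU-rich mRNA, 3 were higher and 3 lower with each fragment. Zfp36l2, which promotes such decay, fell by 1.24 on the log2 scale with nApoE4 and by 0.36 with nApoE3, a difference of −0.89 (adjusted p = 6.31e-06).

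Over the 11 libraries, on the TMM log2 CPM scale, the gene most like Ccl7 among 11689 others of at least 1 CPM on average was Ccl2 (Pearson r = 0.995). Ccl2 was most like Parp12, Lgals9 and Phf11d (r = 0.998, 0.998 and 0.997), and Ccl3 most like Hcar2, Mnda and Serpinb9 (0.999, 0.998 and 0.998). Ccl4 was most like Zc3h12c, Gsap and Acod1 (each 0.999) and Ccl9 most like Atp13a4, LOC101055758 and Cd74 (each 0.998). Ccl22 was most like Cd247, Ptprj and Dnajb2 (0.997, 0.994 and 0.994), and Ccl12, with its few counts, Gm30091, Mndal and A530013C23Rik (0.965, 0.964 and 0.962). Between members, r ranged from 0.635 for Ccl7 and Ccl9 to 0.995 for Ccl2 and Ccl7. The libraries fall into 4 groups that share treatment and experiment, so these values describe how alike the 4 group levels are.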

How the data were processed

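RNA was sequenced from 11 samples of BV2 cells in 4 groups, taken from the labels. Per the labels and the study's methods, the authors trimmed single-end reads with Trim Galore 0.5.0, mapped them to GRCm38.p6 with HISAT2 2.1.0 and deposited raw counts per gene from HTSeq 0.11.0. Reads counted on genes were 76.0 to 77.7% of all reads tallied, ambiguous reads 3.24 to 3.56% and multiply mapped reads 11.7 to 13.2%. Tallies that name no gene were left out. RefSeq positions matched 33058 of 36529 symbols.

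Counts were analysed in R 4.3.3 with edgeR 4.0.16 (filterByExpr, TMM, quasi-likelihood F test, Benjamini-Hochberg adjustment over all genes tested, threshold 0.05). Standard errors are approximate, derived from each log2 fold change and its F statistic. Treated libraries were set against the controls of the same experiment, responses against each other by an interaction over 11 libraries, and control A against control B. Code was tested on simulated data. Levels are CPM scaled by TMM factors over the 11 libraries, and log2 CPM for likeness used a prior count of 0.5. Some items are not reported here. Sequences were read with Python 3.11.15, aligned with Biopython 1.88 and searched with BLAST+ 2.17.0.

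The members and gene lists were chosen with earlier results of these data known. Named genes are the 8 members, every other Ccl gene with a count, up to 4 genes a list by mean level, the 3 genes most like each member, and genes overlapping a member. Some list genes are also named because they passed the filter on low counts only through treated or only through control libraries. The alternatives were DESeq2 1.42.0, its size factors, library size alone, 2 other filters, thinning, a 2-fold threshold in the test itself, a replicate block, all 11 libraries in 1 fit and leaving out each library.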

Additional observations from a re-analysis of the deposited data

Results flagged for a closer look

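The responses to the fragments differed by the interaction test for 5 of the 7 CC chemokines tested, against 28.3% of 15287 genes tested. Values are given as the log2 change with nApoE4 minus that with nApoE3, with adjusted p from edgeR's quasi-likelihood test. The difference was −2.92 for Ccl7 (adjusted p = 1.10e-06), −2.73 for Ccl12 (adjusted p = 0.00429), −2.16 for Ccl2 (adjusted p = 3.74e-07), −1.59 for Ccl3 (adjusted p = 1.12e-06) and 0.43 for Ccl4 (adjusted p = 0.0162). In every library of both fragments the gene was above its controls, so the differences are in the size of the rise and not in its direction. The Ccl4 call was lost without nApoE3 replicate 2 (adjusted p = 0.0805), and neither Ccl4 nor Ccl12 passed a test against a fold change of 2. For Ccl3 the untreated levels also differed, with control B lower than control A by a log2 change of −1.18. Ccl12 was below the filter on low counts between controls. A fit of all 11 libraries put it lower in control B by −1.34 (adjusted p = 0.0349). With every gene of at least 1 count it was not called (adjusted p = 0.0971). Ccl12 also entered the interaction test only through its treated libraries. Fragment and experiment cannot be told apart in these values.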

How the results depend on the processing

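Of 405 values of single members under the alternatives, 396 kept their direction and side of the threshold. Every member tested was higher with each fragment under every alternative, with 7 tested except where at least 10 counts were required in every library, which left 5 and kept 4 calls in the difference. Scaling by library size alone moved the median of all genes to −0.089 with nApoE4 and −0.13 with nApoE3, and the higher share of calls from 49.9 to 39.9% and from 48.9 to 34.6%. A test against a fold change of 2 left 1575 genes called with nApoE4, 1495 with nApoE3, 191 for the difference and 1354 between controls, with 3 members for the difference and 1 between controls. Ccl12 (adjusted p = 0.138) and Ccl4 were lost there for the difference, and Ccl3 between controls (adjusted p = 0.126). With all 11 libraries in 1 fit, 4 members differed between controls, with Ccl12 and Ccl22 added. In the main fit, 69.3% of 14249 genes were called between controls.

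Replicate numbers did not pair the samples, as residuals of same-numbered samples correlated at −0.127 to −0.0089 in the nApoE4 experiment. With a replicate block, 7036 genes were called with nApoE4, 9785 with nApoE3, 9376 between controls and 2307 for the difference, where Ccl4 fell just short (0.37, adjusted p = 0.0503). The sign turned in values that passed no threshold: for Ccl22 in the difference with thinned counts (−0.33), and for Ccl2 between controls without control A replicate 2 (0.14) or control B replicate 2 (0.022), the range over left-out libraries being −0.14 to 0.14. The cause was not tested. Depth limits Ccl12 and Ccl22, whose controls held 1 to 11 counts.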

Other observations

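Ccl5, a T cell attractant that activated macrophages make, was listed at 0 in all 11 libraries and was not among the genes described above. Its whole span (chromosome 11, 83525778 to 83530518, GRCm38.p6) lies inside that of Gm32650 (83511289 to 83546540). Gm32650 had 11, 9 and 10 counts in control A and 205, 242 and 243 with nApoE4, a log2 fold change of 4.63 (SE 0.19, adjusted p = 4.78e-08 from edgeR's quasi-likelihood test). In that comparison it passed the filter on low counts only through its treated libraries. It had 24, 9 and 13 counts in control B and 209 and 167 with nApoE3, a log2 fold change of 3.74 (SE 0.25, adjusted p = 4.33e-08). Whether these counts hold reads of Ccl5 was not tested. E230016K23Rik, which spans Ccl6, had 1055, 688 and 1252 counts in control A and 730, 843 and 613 with nApoE4 (log2 fold change −0.34, adjusted p = 0.154), and 885, 735 and 651 in control B and 832 and 793 with nApoE3 (0.23, adjusted p = 0.00169).

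Of the genes in the lists and marker sets that were at 0 in every library, 7 of 11 lie inside the span of another gene, among them Ccl19 and Ccl21a inside 4930578G10Rik and Cxcl10 inside Art3.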
